A study of Homo sapiens with 16 samples.

Results

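Monoclonal knockout derivatives of A673, a cell line of Ewing sarcoma, were compared before any drug was given: one in which MRPL45 had been targeted and one in which CYC1 had been targeted. The members of the comparison were the 4 libraries of these 2 lines that received 0.1% DMSO, the solvent, for 48 h (2 of MRPL45 KO and 2 of CYC1 KO), out of 16 libraries in the series. The rest of the series holds the same lines treated with SP-2509 at 500 nM, a compound that inhibits LSD1 (a demethylase of histones), as well as unmodified A673 and a UQCRFS1 knockout line under both treatments. Both lines were singled out because their response to SP-2509 was smaller than that of A673. Poly(A) RNA was sequenced, and all 39249 genes of the deposited count tables entered the comparison. Each knockout line is 1 clone, so an effect of the targeted gene and a property of that clone cannot be told apart. No label says that the 2 libraries of a line came from separate cultures, so p-values measure only how far these libraries differ, which could be technical.

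MRPL45 is a protein of the large subunit of the mitochondrial ribosome. This ribosome translates the mRNAs of the mitochondrial genome, and MRPL45 helps to anchor it to the inner membrane. CYC1 is cytochrome c1, a nuclear-encoded subunit of respiratory complex III, which passes electrons from ubiquinol to cytochrome c. Loss of either is known to impair oxidative phosphorylation, the first through subunits of several complexes and the second through complex III. Ewing sarcoma cells carry a fusion of EWSR1 with the ETS factor FLI1, which activates one set of genes and holds down another, among them mesenchymal and adhesion genes.

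The DMSO libraries held 47074045 and 27544362 counts in MRPL45 KO, 46064569 and 43813692 in CYC1 KO, and 43846845 and 37877638 in A673. At least 1 count was seen for 32718 and 29645 genes in MRPL45 KO, against 29404 and 29226 genes in CYC1 KO. On the first principal component of log2 CPM (each gene's counts scaled to a common library total), which carried 53.8% of the variance over all 16 libraries, the MRPL45 KO libraries lay at 81.1 and 80.9 and the CYC1 KO libraries at -36.0 and -36.8. A673 lay at -44.2 and -44.1, beside the CYC1 KO libraries. CYC1 itself had 274 and 302 CPM in MRPL45 KO, against 71.1 and 74.4 CPM in CYC1 KO and 290 and 280 CPM in A673. Its transcript was thus lowered but still present in the line that carries its knockout (log2 fold change 1.98 ± 0.07 for MRPL45 KO over CYC1 KO, edgeR adjusted p = 6.88e-17, where ± is the standard error and n = 2 libraries a line throughout). UQCRFS1, the Rieske protein of complex III, had 88.6 and 91.9 CPM in MRPL45 KO, against 103 and 100.2 CPM in CYC1 KO (-0.17 ± 0.06, edgeR adjusted p = 0.0197), a small difference that upper-quartile scaling removed (-0.00, edgeR adjusted p = 0.993). MRPL45 is not reported here, so the label of that line was not checked against its target gene. All 10 Ewing sarcoma markers were detected in both lines, with summed levels of 3233 and 3106 CPM in MRPL45 KO, against 4389 and 4364 CPM in CYC1 KO. Of the markers of other cell types, those of blood summed to 0.672 and 0.660 CPM in MRPL45 KO, against 0.497 and 0.743 CPM in CYC1 KO. Those of epithelium summed to 147 and 191 CPM in MRPL45 KO, against 168 and 191 CPM in CYC1 KO, almost all from KRT8 and KRT18. Those of endothelium summed to 36.1 and 39.7 CPM in MRPL45 KO, against 35.5 and 37.7 CPM in CYC1 KO, almost all from EGFL7. Of 6 endothelial markers tested, 3 of low level (VWF, KDR and ERG, means of 0.272 to 1.68 CPM in MRPL45 KO and 0.0221 to 0.562 CPM in CYC1 KO) were called higher and none lower, and their part in the results was not tested. Markers of muscle summed to 86.2 and 89.2 CPM in MRPL45 KO, against 72.5 and 77.6 CPM in CYC1 KO. In A673 they summed to 29.9 and 33.8 CPM, so both knockout lines lay above it. MYOD1, of muscle, and KRT14, of epithelium, were at or near 0 in both lines.

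The lines differed at most expressed genes. Of 21633 genes tested with edgeR's quasi-likelihood test, 12770 (59.0%) were called at an adjusted p under 0.05, of which 6210 (28.7% of those tested) were higher and 6560 (30.3%) lower in MRPL45 KO. Large differences leaned upwards: 3425 genes were called at least 2-fold higher and 1871 at least 2-fold lower, and at least 8-fold 912 were higher and 190 lower. Among 12028 protein-coding genes with a mean of 1 CPM or more, the balance was the other way, with 31.7% called higher, 44.1% called lower and a median log2 fold change of -0.11. With upper-quartile scaling the median of all genes moved up by 0.172, and 60.8% of the called genes were higher instead of 48.6%, so small directions below are relative to the scaling used. In a simulation with the means of these libraries, only 200 genes, each with a mean of 5 CPM or more, were changed, up and down alike. There 94% of genes changed 1.5-fold were recovered, and 5.7% of the calls were unchanged genes. The simulated counts left out the extra spread of single genes, so both rates may be too favourable. So few genes differed in the simulation that it could not test the scaling.

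A further kind of difference was on or off: 18 genes were expressed in one line at a mean of 5 CPM or more and had between 0 and 3 counts over both libraries of the other, 13 of them in MRPL45 KO and 5 in CYC1 KO. SLC28A3, a concentrative nucleoside transporter on chromosome 9, had 98.1 and 103.8 CPM in MRPL45 KO, against 0 counts in both CYC1 KO libraries and both A673 libraries, and was at least 3030-fold higher in MRPL45 KO with a floor of 3 counts over the 2 libraries of a line. TIAM1, a guanine exchange factor that activates the GTPase RAC1, had 2470 counts in MRPL45 KO, against 0 in CYC1 KO (at least 906-fold higher) and 13 in A673. GALC, the lysosomal galactosylceramidase, had 29.3 and 31.4 CPM in MRPL45 KO, against 0.0216 and 0.0225 CPM in CYC1 KO, a ratio of 1370 with a 95% counting interval from 377 to 11300. All 3 were off or nearly so in CYC1 KO and at 1.08 CPM or less in A673.

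Zinc finger genes with a ZNF symbol made up 6 of the 13 genes on in MRPL45 KO and off in CYC1 KO, and 485 of all 21633 tested genes. ZNF354C had 2468 counts in MRPL45 KO, against 1 in CYC1 KO and 2 in A673, a ratio of 2720 (95% interval 487 to 107000). ZNF736 had 1803 counts in MRPL45 KO, against 1 in CYC1 KO and 19 in A673, and ZNF667 had 1191 counts in MRPL45 KO, against 2 in CYC1 KO and 1 in A673. ZNF667-AS1, a long noncoding RNA read from the other strand at the start of ZNF667, had 22.95 and 20.83 CPM in MRPL45 KO, against 0.0648 and 0.0675 CPM in CYC1 KO. The gene models of the pair overlap, and whether the counting used strand is not given in the sources used here, so their reads cannot be fully told apart. ZNF626, ZNF835, the palmitoyltransferase gene ZDHHC15 and LRCH2 followed the same pattern, with between 455 and 1060 counts in MRPL45 KO, against 0 or 1 in CYC1 KO. Over all 485 tested genes with a ZNF symbol, a family looked at after its values were seen, 174 were called higher and 157 lower, and 35 (7.22%) were at least 8-fold higher against 4.22% of all tested genes. The median log2 fold change of the family was 0.02, as over all tested genes.

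In the other direction, MGST1, a membrane-bound glutathione transferase, had 0.0192 and 0.0330 CPM in MRPL45 KO, against 48.1 and 46.2 CPM in CYC1 KO and 46.5 and 42.8 CPM in A673. FIGN, the microtubule-severing ATPase fidgetin, had 1 count in MRPL45 KO, against 2759 in CYC1 KO and 1733 in A673. SLC25A20, the carnitine-acylcarnitine carrier that brings long-chain acyl groups into mitochondria for oxidation, had 0 counts in MRPL45 KO, against 7.65 and 7.54 CPM in CYC1 KO, and was at least 209-fold higher in CYC1 KO. These 3 genes were also expressed in A673, and MRPL45 KO was the line that lacked them. ALDH1A1, a retinaldehyde dehydrogenase, had 1 count in MRPL45 KO, against 614 in CYC1 KO and 57 in A673. RGS1, a regulator of G protein signalling, had 3 counts in MRPL45 KO, against 936 in CYC1 KO and 120 in A673. Bounds and intervals of these genes cover counting error only.

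The promoters of 6 of these on-off genes are shown because these genes were transcribed in one line and nearly silent in the other. Each runs from 250 bases before to 50 bases after the start in RefSeq, build GRCh38.p14, 5′ to 3′ on the strand of the gene, and the capitals mark CG dinucleotides, the main site of DNA methylation.
TIAM1 (chr21:31559038-31559337, minus strand): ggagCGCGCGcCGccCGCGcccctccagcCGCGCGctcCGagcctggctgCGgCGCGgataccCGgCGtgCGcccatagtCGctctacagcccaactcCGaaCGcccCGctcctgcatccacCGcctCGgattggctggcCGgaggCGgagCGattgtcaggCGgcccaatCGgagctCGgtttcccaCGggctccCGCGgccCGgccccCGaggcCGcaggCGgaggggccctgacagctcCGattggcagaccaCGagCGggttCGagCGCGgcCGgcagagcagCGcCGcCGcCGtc
ZNF354C (chr5:179060123-179060422, plus strand): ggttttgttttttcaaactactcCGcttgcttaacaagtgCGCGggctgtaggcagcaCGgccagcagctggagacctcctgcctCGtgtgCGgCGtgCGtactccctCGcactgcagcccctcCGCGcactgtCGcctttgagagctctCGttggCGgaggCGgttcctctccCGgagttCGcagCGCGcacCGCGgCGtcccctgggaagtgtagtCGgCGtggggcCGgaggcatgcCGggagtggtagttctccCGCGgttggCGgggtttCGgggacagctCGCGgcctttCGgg
ZNF667 (chr19:56477296-56477595, minus strand): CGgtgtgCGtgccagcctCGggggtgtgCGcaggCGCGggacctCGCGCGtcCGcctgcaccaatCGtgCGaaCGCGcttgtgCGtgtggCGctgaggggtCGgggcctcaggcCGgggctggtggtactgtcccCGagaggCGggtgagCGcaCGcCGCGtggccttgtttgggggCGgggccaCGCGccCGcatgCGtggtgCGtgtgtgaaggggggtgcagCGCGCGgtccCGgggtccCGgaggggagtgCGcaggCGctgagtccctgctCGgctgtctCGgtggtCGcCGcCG
GALC (chr14:87993133-87993432, minus strand): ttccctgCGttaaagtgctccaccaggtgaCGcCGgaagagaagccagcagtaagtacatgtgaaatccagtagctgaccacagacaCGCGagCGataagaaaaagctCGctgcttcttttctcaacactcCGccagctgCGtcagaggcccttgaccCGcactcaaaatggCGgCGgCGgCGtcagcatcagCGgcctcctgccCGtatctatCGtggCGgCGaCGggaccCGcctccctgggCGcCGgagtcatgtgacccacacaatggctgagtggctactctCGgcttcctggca
MGST1 (chr12:16347395-16347694, plus strand): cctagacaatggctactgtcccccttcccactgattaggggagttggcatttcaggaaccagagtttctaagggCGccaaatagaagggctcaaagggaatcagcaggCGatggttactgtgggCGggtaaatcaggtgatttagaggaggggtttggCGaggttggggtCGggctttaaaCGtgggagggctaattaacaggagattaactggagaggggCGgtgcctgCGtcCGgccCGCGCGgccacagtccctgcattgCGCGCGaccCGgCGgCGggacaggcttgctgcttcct
FIGN (chr2:163735959-163736258, minus strand): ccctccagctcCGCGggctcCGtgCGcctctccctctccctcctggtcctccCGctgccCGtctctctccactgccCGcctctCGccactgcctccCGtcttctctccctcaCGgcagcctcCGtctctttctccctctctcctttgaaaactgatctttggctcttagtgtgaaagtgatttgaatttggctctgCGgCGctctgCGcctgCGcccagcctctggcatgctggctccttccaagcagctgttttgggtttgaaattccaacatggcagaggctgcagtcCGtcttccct
These windows held 46 CG in TIAM1, 33 in ZNF354C, 42 in ZNF667, 24 in GALC, 18 in MGST1 and 16 in FIGN. They do not stand for the rest of the on-off genes. Windows not shown of genes on in MRPL45 KO held from 1 (FLG) to 32 (ZNF135), with 9 in ZNF736 and 8 in ZNF626. Those of genes on in CYC1 KO held from 6 (RGS1) to 21 (SLC25A20). The same table held promoters for 11 of the 13 genes on in MRPL45 KO and off in CYC1 KO, of which 8 had at least 20 CG, and for all 5 genes on in CYC1 KO and off in MRPL45 KO, of which 1 did. Of 11864 promoters of tested genes, 66.5% had at least 20 CG and the median was 25. The motif is the same on both strands, and the counts describe sequence only.

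**Figure D1:**
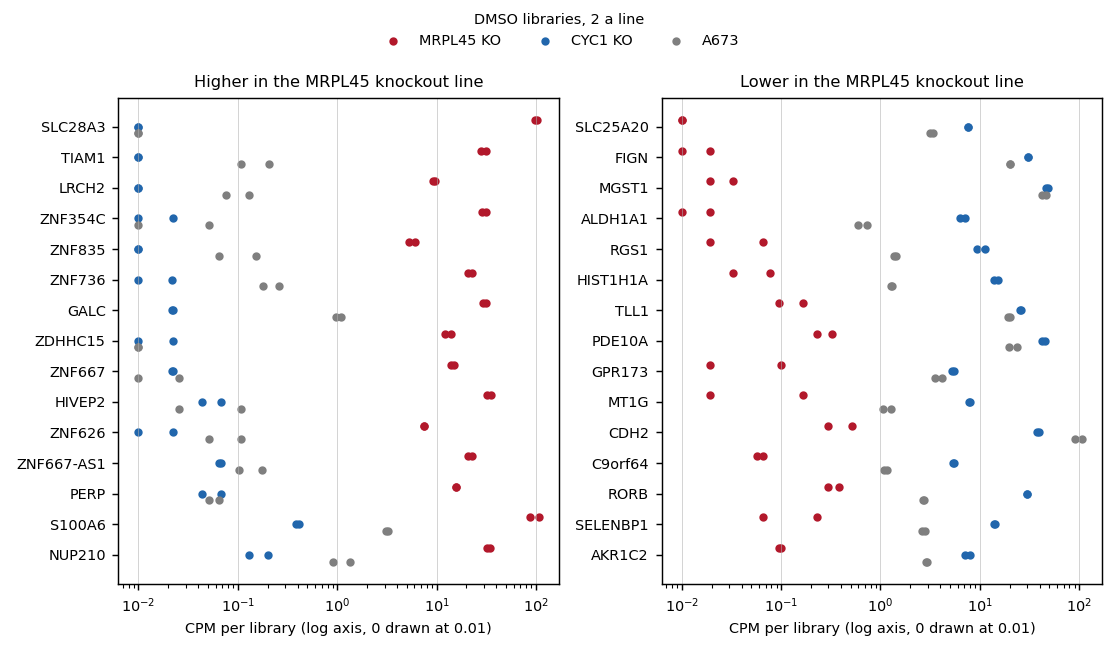
CPM in each DMSO library (log axis) of the 15 genes with the largest fold change in each direction, with MRPL45 KO in red, CYC1 KO in blue and A673 in grey, 2 points a line. The genes were chosen so that the red and blue points do not overlap. In the left panel A673 lies with CYC1 KO for some genes and between the lines for others. For GALC it had 1.08 and 0.972 CPM, against 0.0216 and 0.0225 CPM in CYC1 KO, and it was also above CYC1 KO for S100A6, NUP210 and ZNF736. In the right panel A673 lies between the lines or with CYC1 KO for most genes.

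Among the remaining genes with the largest differences, those higher in MRPL45 KO included a transcription factor, a p53 effector and a calcium-binding protein. HIVEP2, a zinc finger transcription factor, had 35.6 and 32.2 CPM in MRPL45 KO, against 0.0432 and 0.0675 CPM in CYC1 KO (9.20 ± 0.25, edgeR adjusted p = 1.86e-18). PERP, a membrane protein of desmosomes and a p53 target, had 15.8 and 15.7 CPM in MRPL45 KO, against 0.0432 and 0.0675 CPM in CYC1 KO (8.09 ± 0.22). S100A6, a calcium-binding protein of the S100 family, had 87.3 and 107.8 CPM in MRPL45 KO, against 0.411 and 0.383 CPM in CYC1 KO and 3.23 and 3.07 CPM in A673 (7.93 ± 0.18 for MRPL45 KO over CYC1 KO). NUP210, a nucleoporin of the nuclear pore membrane ring, had 34.4 and 31.9 CPM in MRPL45 KO, against 0.130 and 0.203 CPM in CYC1 KO (7.62 ± 0.19). Each of these was also low in A673, at 3.23 CPM or less.

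Genes lower in MRPL45 KO included secreted and membrane proteins as well as enzymes. CDH2, N-cadherin, had 0.518 and 0.297 CPM in MRPL45 KO, against 39.6 and 37.8 CPM in CYC1 KO and 90.9 and 105.8 CPM in A673 (-6.47 ± 0.13 for MRPL45 KO over CYC1 KO, edgeR adjusted p = 1.40e-21). TLL1, a metalloproteinase that trims procollagens, had 0.0959 and 0.165 CPM in MRPL45 KO, against 26.3 and 25.5 CPM in CYC1 KO. PDE10A, a phosphodiesterase of cyclic nucleotides, had 0.326 and 0.231 CPM in MRPL45 KO, against 45.1 and 42.4 CPM in CYC1 KO. The levels of these 3 genes in A673 were closer to those of CYC1 KO. Others lay below A673 in MRPL45 KO and above A673 in CYC1 KO. RORB, an orphan nuclear receptor, had 0.384 and 0.297 CPM in MRPL45 KO, against 30.1 and 29.7 CPM in CYC1 KO and 2.66 and 2.76 CPM in A673. HIST1H1A, a linker histone gene, had 0.0768 and 0.0330 CPM in MRPL45 KO, against 15.1 and 14.0 CPM in CYC1 KO and 1.28 and 1.31 CPM in A673. SELENBP1, AKR1C2, MT1G and C9orf64 likewise had between 5.33 and 14.2 CPM in CYC1 KO libraries, against at most 0.230 CPM in MRPL45 KO libraries and between 1.06 and 2.92 CPM in A673 libraries. For AKR1C2 the log2 fold change over A673 was -4.86 in MRPL45 KO and 1.37 in CYC1 KO. GPR173, an orphan receptor, had 0.0192 and 0.0990 CPM in MRPL45 KO, against 5.25 and 5.56 CPM in CYC1 KO.

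Transcripts of the mitochondrial genome differed at a few genes. MT-RNR2, the RNA of the large mitochondrial ribosomal subunit to which the MRPL45 protein belongs, had 63.1 and 21.6 CPM in MRPL45 KO, against 453 and 322 CPM in CYC1 KO and 298 and 824 CPM in A673 (-3.17 ± 0.70 for MRPL45 KO over CYC1 KO, edgeR adjusted p = 0.00415). Both MRPL45 KO libraries lay below both of each other line. MT-RNR1, the RNA of the small subunit, had 65.9 and 13.9 CPM in MRPL45 KO, against 91.0 and 68.3 CPM in CYC1 KO (-0.96 ± 0.89, edgeR adjusted p = 0.396). Ribosomal RNA of mitochondria carries short or no poly(A) tails, so these levels reflect what poly(A) selection retained. The libraries of 1 line differed by up to several-fold here, and with only the 4 compared libraries in the fit the adjusted p of MT-RNR2 was 0.0767.

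Of the 13 mRNAs of the mitochondrial genome, 3 were called higher in MRPL45 KO (23.1%, against 28.7% of all tested genes) and none lower, and all 3 encode subunits of complex I. Without MRPL45 KO replicate 1 the median of the 13 was -0.43 with 2 higher and 1 lower, against -0.01 with all libraries. MT-ND1, whose sequence follows MT-RNR2 on the same strand, had 3179 and 2206 CPM in MRPL45 KO, against 995 and 803 CPM in CYC1 KO and 774 and 492 CPM in A673 (1.58 ± 0.31, edgeR adjusted p = 0.00183). MT-ND2, the next mRNA on that strand, had 1610 and 957 CPM in MRPL45 KO, against 533 and 453 CPM in CYC1 KO (1.38 ± 0.28, edgeR adjusted p = 0.00231). MT-ND3 had 626 and 243 CPM in MRPL45 KO, against 198 and 175 CPM in CYC1 KO (1.22 ± 0.37, edgeR adjusted p = 0.0203), but without the first MRPL45 KO library the difference was 0.39 and not called. The libraries of the 2 lines overlapped for all of the other 10 mRNAs, such as MT-CO1, with 5543 and 4291 CPM in MRPL45 KO, against 6868 and 4645 CPM in CYC1 KO (-0.23, edgeR adjusted p = 0.590). MTND2P28, a nuclear copy close in sequence to MT-ND2, had 55.5 and 37.8 CPM in MRPL45 KO, against 19.9 and 21.8 CPM in CYC1 KO, and reads of the pair may have been split between them. With only the 4 compared libraries in the fit, the adjusted p was 0.0836 for MT-ND2 and 0.242 for MT-ND3.

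**Figure D2:**
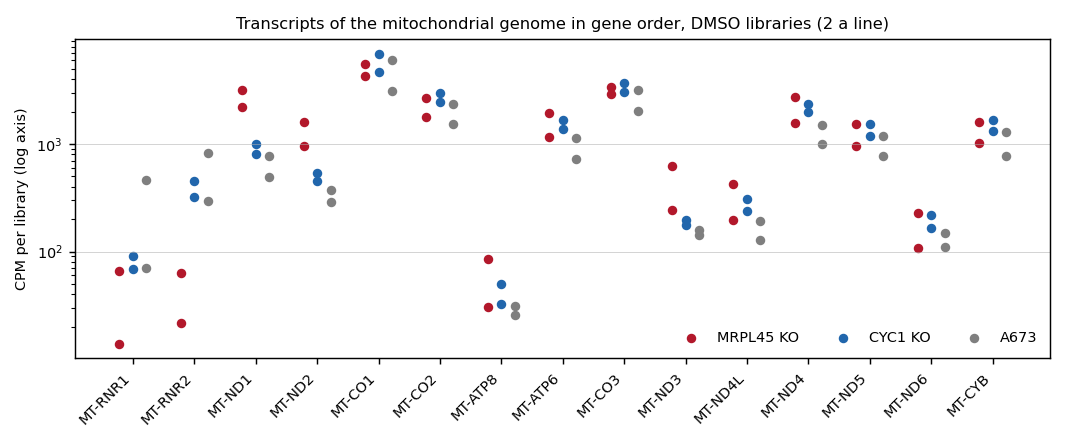
CPM in each DMSO library (log axis) of the 2 ribosomal RNAs and 13 mRNAs of the mitochondrial genome, in gene order, with MRPL45 KO in red, CYC1 KO in blue and A673 in grey. MT-RNR2 is lowest in MRPL45 KO (63.1 and 21.6 CPM) and MT-ND1, MT-ND2 and MT-ND3 are higher there than in CYC1 KO, while the other 10 mRNAs overlap between MRPL45 KO and CYC1 KO.

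Nuclear genes of the mitochondrial ribosome were mostly lower in MRPL45 KO. Of 47 tested genes of the large subunit, 37 were called lower (78.7%) and 2 higher, with a median log2 fold change of -0.54. Of 32 of the small subunit 19 were lower (59.4%) and 4 higher (median -0.47). The median was 0.02 over all tested genes. Over expressed protein-coding genes it was -0.11, with 44.1% lower. MRPL17 had 28.6 and 32.1 CPM in MRPL45 KO, against 68.9 and 71.2 CPM in CYC1 KO (-1.21 ± 0.07, edgeR adjusted p = 1.41e-13). MRPL24 (-1.02 ± 0.06) and MRPL36 (-0.93 ± 0.07) were lower as well, and MRPL52 (0.49 ± 0.07) and MRPL22 (0.46 ± 0.09) were the 2 members called higher. In the small subunit, MRPS23 had 32.9 and 35.8 CPM in MRPL45 KO, against 92.6 and 92.1 CPM in CYC1 KO (-1.43 ± 0.07, edgeR adjusted p = 1.75e-14), and MRPS7 had 38.1 and 37.7 CPM in MRPL45 KO, against 94.3 and 90.8 CPM in CYC1 KO. Against A673 the medians of the large subunit were -0.46 for MRPL45 KO and 0.08 for CYC1 KO, comparisons that share the A673 libraries.

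Factors that make and translate mitochondrial RNA moved alike, with 19 of 29 called lower and 2 higher (median -0.44). TFB2M, a transcription factor of the mitochondrial genome, had 26.2 and 26.8 CPM in MRPL45 KO, against 63.9 and 61.3 CPM in CYC1 KO and 35.9 and 31.4 CPM in A673 (-1.24 ± 0.07 for MRPL45 KO over CYC1 KO). MTERF1 and MTERF3, members of the mitochondrial transcription termination factor family, fell by 1.18 and 1.17 on the log2 scale, and TACO1, a translational activator of MT-CO1, fell by 1.05. OXA1L, the insertase that receives new mitochondrial proteins and binds the mitochondrial ribosome, was 0.36 ± 0.06 higher. Of 18 mitochondrial chaperones and proteases, 14 were called lower and 3 higher, or 1 without CYC1 KO replicate 1 (median -0.46). HSPD1, the chaperonin HSP60, had 723 and 733 CPM in MRPL45 KO, against 1524 and 1503 CPM in CYC1 KO (-1.06 ± 0.06), and the protease YME1L1 of the inner membrane had 281 and 290 CPM in MRPL45 KO, against 162 and 165 CPM in CYC1 KO (0.80 ± 0.06).

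Subunits of the respiratory complexes showed smaller differences. Of 15 genes of complex III and its assembly, 10 were called lower (66.7%, against 44.1% of expressed protein-coding genes) and only CYC1 higher, with a median of -0.33. The median was -0.15 without MRPL45 KO replicate 1, -0.19 without CYC1 KO replicate 2 and -0.16 with upper-quartile scaling, the last with 7 lower. The lower ones included the assembly factors TTC19 (-0.74 ± 0.06), UQCC1 (-0.63 ± 0.06) and BCS1L (-0.63 ± 0.07). Of 37 nuclear subunits of complex I, 14 were called lower (37.8%), such as NDUFC1 (-0.94 ± 0.06), and 6 higher (16.2%), such as NDUFA8 (0.58 ± 0.06). Their median of -0.16 turned to 0.01 with upper-quartile scaling, and was -0.04 without MRPL45 KO replicate 1, -0.28 without MRPL45 KO replicate 2 and -0.005 without CYC1 KO replicate 2. Of 30 nuclear subunits of complexes II, IV and V, 17 were lower (56.7%) and 2 higher (median -0.23). The median was -0.49 without MRPL45 KO replicate 2, -0.41 without CYC1 KO replicate 1 and -0.06 with upper-quartile scaling, and 11 were lower without MRPL45 KO replicate 1 and 10 with that scaling. SDHD, a membrane anchor of complex II, had 28.4 and 35.8 CPM in MRPL45 KO, against 70.2 and 74.9 CPM in CYC1 KO. In the TCA cycle list 14 of 20 were lower, among them fumarase (FH, -0.73 ± 0.06), and 4 were higher, among them DLST (0.65 ± 0.06).

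In the integrated stress response the factor ATF4 induces genes of amino acid supply. ATF4 mRNA was lower in MRPL45 KO, while its targets went both ways. ATF4 mRNA had 135 and 133 CPM in MRPL45 KO, against 300 and 289 CPM in CYC1 KO and 385 and 392 CPM in A673 (-1.13 ± 0.06 for MRPL45 KO over CYC1 KO, edgeR adjusted p = 1.77e-14). Of 43 tested targets and partners on the list, 18 were called higher in MRPL45 KO (41.9%, against 31.7% of expressed protein-coding genes). Lower were 10 (23.3%, against 44.1%), and the median was 0.09. With upper-quartile scaling 28 were higher. Against A673 the medians of the list were -0.5 for MRPL45 KO and -0.51 for CYC1 KO. The tryptophanyl-tRNA synthetase gene WARS had 277 and 285 CPM in MRPL45 KO, against 78.4 and 78.4 CPM in CYC1 KO and 175.5 and 175.9 CPM in A673 (1.84 ± 0.06 for MRPL45 KO over CYC1 KO). STC2, a secreted glycoprotein, had 58.8 and 55.3 CPM in MRPL45 KO, against 10.9 and 11.1 CPM in CYC1 KO (2.37 ± 0.09). SLC1A4, a neutral amino acid transporter, was 1.37 ± 0.07 higher, and VLDLR, a lipoprotein receptor, 3.61 ± 0.19 higher. Lower members were ALDH1L2, a mitochondrial enzyme of folate metabolism with 3.13 and 3.57 CPM in MRPL45 KO, against 13.1 and 11.9 CPM in CYC1 KO, and XPOT and PSPH.

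Sterol genes were mostly lower in MRPL45 KO, with 17 of 26 called lower and 3 higher (median -0.42). The shares were 65.4% and 11.5%, against 44.1% and 31.7% of expressed protein-coding genes. HSD17B7, an enzyme of cholesterol synthesis, had 6.60 and 7.10 CPM in MRPL45 KO, against 27.9 and 28.5 CPM in CYC1 KO (-2.05 ± 0.09, edgeR adjusted p = 1.13e-15). Of 25 glycolysis genes 7 were higher (28.0%) and 10 lower (40%), shares near those of expressed protein-coding genes. LDHA, a lactate dehydrogenase, had 529 and 550 CPM in MRPL45 KO, against 1039 and 1029 CPM in CYC1 KO, and PFKFB3, which makes the activator of phosphofructokinase, had 144 and 138 CPM in MRPL45 KO, against 71.0 and 72.6 CPM in CYC1 KO. The hexokinases parted, with HK1 higher (0.77 ± 0.07) and HK2 lower (-0.90 ± 0.07). Of 20 hypoxia-inducible genes 12 were higher and 3 lower (median 0.26), including LOX, an enzyme that crosslinks collagen, with 57.5 and 53.9 CPM in MRPL45 KO, against 16.96 and 15.17 CPM in CYC1 KO. Of 25 NRF2 targets 5 were higher (20%) and 11 lower (44.0%), where 44.1% of expressed protein-coding genes were lower. Ferritin light chain (FTL) had 1601 and 1619 CPM in MRPL45 KO, against 666 and 653 CPM in CYC1 KO, and AKR1C1 was 2.84 lower on the log2 scale.

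Transcripts linked to the Ewing sarcoma fusion shifted in opposite senses. EWSR1 had 201 and 213 CPM in MRPL45 KO, against 321 and 337 CPM in CYC1 KO (-0.67 ± 0.06, edgeR adjusted p = 6.25e-10), and FLI1 had 75.5 and 78.6 CPM in MRPL45 KO, against 110.5 and 110.3 CPM in CYC1 KO (-0.52 ± 0.06, edgeR adjusted p = 1.61e-08). Gene-level counts do not separate the fusion transcript from the unrearranged genes. Of the 10 Ewing sarcoma markers, which include EWSR1 and FLI1, 9 were called lower, with a median of -0.61. Among them were the fusion targets NKX2-2 (-0.79 ± 0.07) and NR0B1 (-0.66 ± 0.07), and CD99 was not called. After subtracting the median of each gene's chromosome, the median of the markers was -0.34. Against A673 it was -0.23 for MRPL45 KO and 0.36 for CYC1 KO. Of 30 genes that the fusion is known to activate, 18 were lower and 6 higher (median -0.33), and their median after subtracting that of each gene's chromosome was -0.06. Against A673 the medians of these genes were -0.07 for MRPL45 KO and 0.29 for CYC1 KO.

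Genes that the fusion is known to hold down were higher in MRPL45 KO, with 24 of 29 called higher, 5 lower and a median of 1.01. CD44, a receptor for hyaluronan, had 99.0 and 92.9 CPM in MRPL45 KO, against 0.583 and 0.495 CPM in CYC1 KO and 0.433 and 0.486 CPM in A673 (7.47 ± 0.13 for MRPL45 KO over CYC1 KO, edgeR adjusted p = 6.87e-23). IGFBP5, which binds insulin-like growth factors, had 20.8 and 19.0 CPM in MRPL45 KO, against 0.756 and 0.945 CPM in CYC1 KO. TGFBI, a matrix protein induced by TGF-beta, was 3.34 ± 0.10 higher. The exception of largest size was DKK1, an inhibitor of Wnt signalling, with 0.288 and 0.198 CPM in MRPL45 KO, against 7.82 and 6.64 CPM in CYC1 KO and 0.844 and 0.691 CPM in A673. Against A673 the list's medians were 1.54 for MRPL45 KO and 0.28 for CYC1 KO.

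KDM1A, which encodes LSD1, the target of SP-2509, had 171 and 175 CPM in MRPL45 KO, against 225 and 222 CPM in CYC1 KO and 321 and 343 CPM in A673 (-0.37 ± 0.06 for MRPL45 KO over CYC1 KO, edgeR adjusted p = 3.45e-06). Of 27 genes of LSD1 and its complexes, 13 were lower (48.1%, near the 44.1% of expressed protein-coding genes). Only 4 were higher (14.8%, against 31.7%), or 10 with upper-quartile scaling. Their median of -0.15 turned to 0.02 with that scaling. The CoREST scaffolds differed from each other, with RCOR1 at 257 and 248 CPM in MRPL45 KO, against 171 and 184 CPM in CYC1 KO, and RCOR2 at 1.88 and 1.49 CPM in MRPL45 KO, against 7.37 and 8.03 CPM in CYC1 KO. The corepressors CTBP1 (-0.81 ± 0.07) and CTBP2 (-0.56 ± 0.06) were both lower.

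Adhesion and YAP or TAZ target genes were mostly higher in MRPL45 KO, and more collagen genes were higher than lower. Of 22 targets of the transcriptional coactivators YAP and TAZ, 17 were called higher and 1 lower (median 0.57). Against A673 the list's medians were 1.37 for MRPL45 KO and 1.08 for CYC1 KO, so both lines lay above A673. NT5E, the ectonucleotidase CD73, had 64.2 and 62.6 CPM in MRPL45 KO, against 17.6 and 14.7 CPM in CYC1 KO. ANKRD1 had 54.5 and 54.9 CPM in MRPL45 KO, against 13.8 and 12.7 CPM in CYC1 KO and 0.520 and 0.537 CPM in A673. Of 32 collagen genes 16 were higher and 8 lower (median 0.55). COL12A1 had 115 and 107 CPM in MRPL45 KO, against 8.12 and 7.43 CPM in CYC1 KO (3.83 ± 0.08, edgeR adjusted p = 3.18e-21), and COL5A1 had 417 and 400 CPM in MRPL45 KO, against 139 and 132 CPM in CYC1 KO. COL9A3, of a cartilage collagen, was 1.90 lower. Of 8 fibroblast markers 5 were higher and 2 lower, or 1 lower without MRPL45 KO replicate 2 or either CYC1 KO library, with summed levels of 1467 and 1326 CPM in MRPL45 KO, against 666 and 635 CPM in CYC1 KO and 515 and 603 CPM in A673. The higher ones included COL1A1 (1.54 ± 0.11), COL3A1 (1.01 ± 0.09) and THY1 (0.83 ± 0.11). DCN and LUM, proteoglycans that define fibroblasts, were at 0.132 to 0.462 CPM in MRPL45 KO libraries and 0.411 to 0.648 CPM in CYC1 KO libraries.

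Of 29 adhesion and mesenchymal transition genes, 17 were higher (58.6%, against 31.7% of expressed protein-coding genes) and 7 lower (24.1%, against 44.1%). The median was 0.42, with changes of more than 8-fold in both directions. ZEB1, a repressor of epithelial genes, had 9.46 and 8.62 CPM in MRPL45 KO, against 0.151 and 0.203 CPM in CYC1 KO (5.66 ± 0.22), while SNAI1, another such repressor, was 1.14 lower. ITGA3, an integrin subunit, had 14.45 and 14.99 CPM in MRPL45 KO, against 1.19 and 0.833 CPM in CYC1 KO. NCAM1 had 3.28 and 3.66 CPM in MRPL45 KO, against 0.173 and 0.113 CPM in CYC1 KO and 3.33 and 3.07 CPM in A673, so that CYC1 KO was the line apart from A673. Fibronectin (FN1) had 6171 and 5457 CPM in MRPL45 KO, against 2549 and 2382 CPM in CYC1 KO. CDH2, given above, was the member with the largest fall.

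Genes of cell proliferation were mostly lower in MRPL45 KO, by amounts under 3-fold. Of 38 DNA replication genes 29 were lower and 5 higher, or 3 without MRPL45 KO replicate 2 (median -0.49), and of 31 mitosis genes 25 were lower and 4 higher (median -0.51). GINS2, of the replicative helicase, had 44.97 and 51.79 CPM in MRPL45 KO, against 121 and 116 CPM in CYC1 KO (-1.30 ± 0.07), and the kinase gene PLK1 had 121 and 114 CPM in MRPL45 KO, against 254 and 262 CPM in CYC1 KO (-1.13 ± 0.07). MKI67, which encodes the proliferation marker Ki-67, went the other way, with 637 and 662 CPM in MRPL45 KO, against 440 and 392 CPM in CYC1 KO (0.64 ± 0.07). In bulk RNA, fewer cells in a state and less RNA per cell cannot be told apart. Among p53 targets 11 of 22 were higher and 6 lower. CDKN1A, the cell cycle inhibitor p21, had 63.0 and 66.0 CPM in MRPL45 KO, against 38.3 and 36.9 CPM in CYC1 KO, and PLK2 was 4.73 ± 0.14 higher, while MDM2 was 0.60 lower.

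Replication-dependent histone genes, a family looked at after its values were seen, were lower almost throughout. Of 36 tested, 30 were called lower and none higher (median -1.60), and 27 of them were at least 2-fold lower. HIST1H1D had 52.0 and 51.2 CPM in MRPL45 KO, against 416 and 414 CPM in CYC1 KO and 516 and 495 CPM in A673 (-3.01 ± 0.06 for MRPL45 KO over CYC1 KO, edgeR adjusted p = 2.24e-21). HIST1H4C had 206 and 219 CPM in MRPL45 KO, against 660 and 646 CPM in CYC1 KO. The members together held 2948 and 3062 CPM in MRPL45 KO, against 9125 and 9070 CPM in CYC1 KO and 9768 and 8968 CPM in A673. These mRNAs mostly end in a stem-loop without a poly(A) tail, so the libraries hold the part that poly(A) selection retained. The DNA replication list fell beside them, and its part in the histone difference was not tested. Members of 1 histone family are near-identical in sequence, so the split of reads between them is uncertain.

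Of 45 genes of the large cytosolic ribosomal subunit 21 were lower (46.7%, near the 44.1% of expressed protein-coding genes). Only 4 were higher (8.9%, against 31.7% of expressed protein-coding genes), and the median was -0.32. With upper-quartile scaling the median was -0.145 and 10 were higher. The lower ones included RPL9, with 242 and 256 CPM in MRPL45 KO, against 679 and 584 CPM in CYC1 KO. Families looked at after their values were seen were the small subunit, with 16 of 30 lower (53.3%) and none higher, or 1 higher without MRPL45 KO replicate 1, and the proteasome, with 25 of 36 lower (69.4%) and 4 higher (median -0.41). PSMD13, a lid subunit, had 71.3 and 72.9 CPM in MRPL45 KO, against 174.5 and 170.9 CPM in CYC1 KO (-1.26 ± 0.06). Lysosome and autophagy genes moved up instead, with 20 of 30 higher and 6 lower (median 0.30). The autophagy receptor SQSTM1 had 103 and 91.0 CPM in MRPL45 KO, against 38.0 and 34.8 CPM in CYC1 KO (1.42 ± 0.07, edgeR adjusted p = 1.20e-14), and the membrane protein LAMP1 had 235 and 227 CPM in MRPL45 KO, against 99.0 and 96.1 CPM in CYC1 KO.

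Of 34 interferon response genes 9 were higher (26.5%) and 15 lower (44.1%), and the shares of expressed protein-coding genes were 31.7% and 44.1%. The sensor IFIH1 (MDA5) had 1.497 and 1.089 CPM in MRPL45 KO, against 10.3 and 10.6 CPM in CYC1 KO (-2.98 ± 0.17), and OAS3, which makes the second messenger of RNase L, was 1.62 lower, while IFIT3 was 0.90 ± 0.11 higher. In the MHC class I list 5 of 14 were higher (35.7%) and 6 lower (42.9%), also near those shares, and the heavy chains parted. HLA-B had 8.35 and 8.09 CPM in MRPL45 KO, against 1.45 and 1.24 CPM in CYC1 KO (2.61 ± 0.17), and HLA-C had 41.8 and 46.0 CPM in MRPL45 KO, against 92.0 and 87.9 CPM in CYC1 KO (-1.04 ± 0.07). These genes are near-identical in part, so reads may have been split between them. Of 16 cytokine genes tested 8 were higher and 3 lower, including the feedback regulator TNFAIP3, with 10.2 and 10.0 CPM in MRPL45 KO, against 1.25 and 1.13 CPM in CYC1 KO.

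Developmental and neuronal genes also went both ways. Of 24 neuronal genes 10 were higher (41.7%) and 9 lower (37.5%), against 31.7% and 44.1% of expressed protein-coding genes. The neurofilament gene NEFH was higher, with 32.8 and 38.6 CPM in MRPL45 KO, against 1.53 and 1.71 CPM in CYC1 KO. UCHL1 was lower, with 166 and 169 CPM in MRPL45 KO, against 395 and 382 CPM in CYC1 KO. Of 15 HOX genes of clusters A and D, 6 were higher and 5 lower. HOXA10 had 139 counts in MRPL45 KO, against 3 in CYC1 KO and 1 in A673 (ratio 51.0, 95% interval 17.1 to 250), and HOXD13 had 35.9 and 36.8 CPM in MRPL45 KO, against 92.3 and 93.6 CPM in CYC1 KO. All 6 higher members were of cluster A and all 5 lower members of cluster D, where HOXD11 (-0.31 ± 0.10), HOXD10 (-0.30 ± 0.07) and HOXD8 (-0.18 ± 0.06) differed by little. Without MRPL45 KO replicate 1 or CYC1 KO replicate 1, 3 were called lower, and 2 without CYC1 KO replicate 2. Clustered protocadherins, neuronal adhesion genes looked at after their values were seen, were mostly higher, with 13 of 15 alpha genes and 18 of 21 gamma genes called higher and none and 1 lower (medians 1.05 and 1.13). Of 14 beta genes 6 were higher and 1 lower. PCDHGA7 had 14.98 and 14.42 CPM in MRPL45 KO, against 4.97 and 3.87 CPM in CYC1 KO, and PCDHGA11, the exception, had 22.6 and 21.1 CPM in MRPL45 KO, against 51.3 and 48.4 CPM in CYC1 KO. Genes of the alpha cluster share their last exons, as do those of the gamma cluster, so counts within each are not independent.

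**Figure D3:**
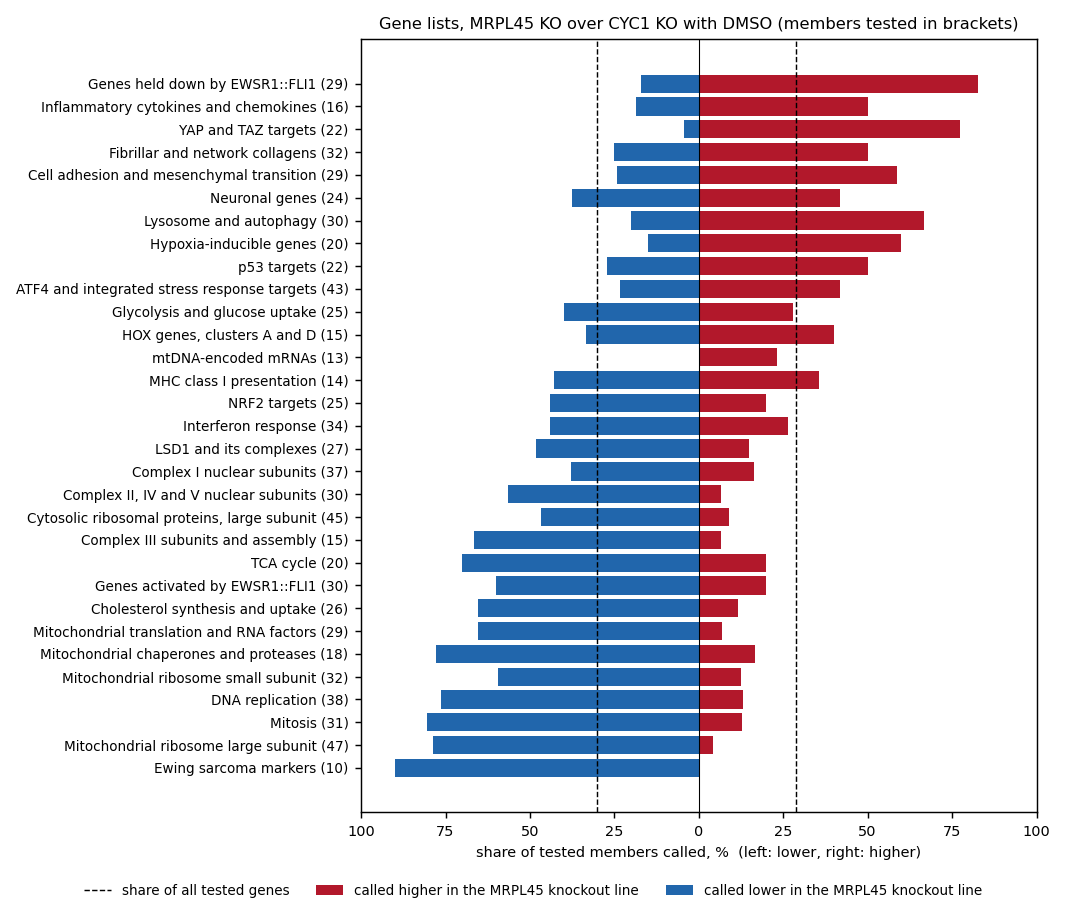
Share of the tested members of 31 gene lists called higher (red, to the right) and lower (blue, to the left) in MRPL45 KO over CYC1 KO with DMSO, sorted by median log2 fold change. The dashed lines mark the shares of all tested genes, 28.7% higher and 30.3% lower, and lists such as the mitochondrial ribosome reach far beyond the left line while genes held down by EWSR1::FLI1 reach far beyond the right one. Among expressed protein-coding genes the shares were 31.7% higher and 44.1% lower, which no line marks.

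Genes of whole chromosomes leaned one way. Over 13692 genes that averaged 1 CPM or more, the median log2 fold change was -0.11, and it ranged from -0.65 on chromosome 4 to 0.62 on chromosome 14. On chromosome 14, 326 of 438 genes (74.4%) were called higher and 27 lower, and on chromosome 4, 81 of 486 were called higher and 339 (69.8%) lower. Chromosome 17 had a median of -0.54 over 755 genes. Against A673 the median of chromosome 14 was 0.31 in MRPL45 KO and -0.32 in CYC1 KO, and that of chromosome 4 was -0.49 in MRPL45 KO and 0.16 in CYC1 KO. With the median of each chromosome subtracted, the median was -0.40 for the large mitochondrial ribosomal subunit, -0.33 for DNA replication, 0.90 for genes held down by the fusion and -1.59 for histone genes, so these lists kept their sign. It was near 0 for complex I (-0.02), NRF2 targets (-0.03), the TCA cycle (-0.06), genes activated by the fusion (-0.06) and complexes II, IV and V (-0.08), and turned for the interferon response (0.02, against -0.14).

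**Figure D4:**
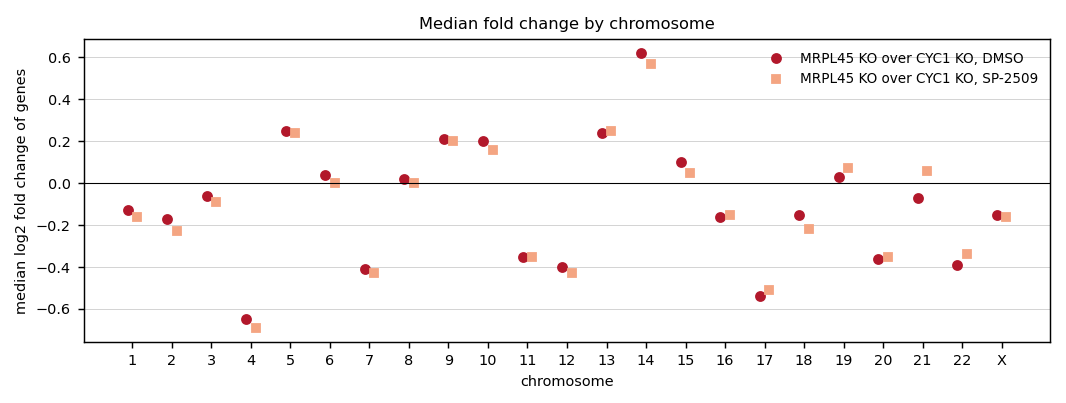
Median log2 fold change of MRPL45 KO over CYC1 KO by chromosome, with DMSO (dark red circles) and with SP-2509 (light squares), for genes averaging 1 CPM or more. Chromosome 14 lies highest (0.62 with DMSO) and chromosome 4 lowest (-0.65), and the values of the 4 DMSO and the 4 SP-2509 libraries lie close together on each chromosome.

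The same lines treated with 500 nM SP-2509 gave 4 further libraries that share none with the DMSO comparison. There 12477 genes (57.7%) were called, 5886 (27.2%) higher and 6591 (30.5%) lower. Of the DMSO calls 10219 were also called in the same direction with SP-2509, which is 80.0% of the DMSO calls and 81.9% of the SP-2509 calls, and 164 were called in the opposite direction. Over 11058 genes with 5 CPM or more in a line with DMSO, the log2 fold changes had a Pearson correlation of 0.947, given as a description across genes that share the 2 clones. SLC28A3 had 112 and 123 CPM in MRPL45 KO with SP-2509, against 0.0204 and 0 CPM in CYC1 KO with SP-2509, and MGST1 had 0 counts in MRPL45 KO, against 4499 in CYC1 KO. MT-ND1 was again higher (1.81, edgeR adjusted p = 8.38e-04) and MT-RNR2 again lower (-1.99, edgeR adjusted p = 0.0325), and 41 of 47 genes of the large mitochondrial ribosomal subunit were lower.

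The difference between the lines itself changed with SP-2509 at 2291 genes (10.6% of those tested), 1061 (4.90%) upwards and 1230 (5.69%) downwards. Sterol genes moved up: of 26, 20 had a line difference that moved up and none one that moved down, and with SP-2509 12 were called higher in MRPL45 KO and 6 lower. STARD4, a sterol transfer protein, had 27.8 and 33.8 CPM in MRPL45 KO, against 68.4 and 69.4 CPM in CYC1 KO with DMSO, and 23.9 and 26.5 CPM in MRPL45 KO, against 28.1 and 26.0 CPM in CYC1 KO with SP-2509. The stress response list moved the other way, with 29 of 43 members down and 1 up. ALDH1L2 had 1.66 and 1.62 CPM in MRPL45 KO, against 26.0 and 25.4 CPM in CYC1 KO with SP-2509, a change of -2.06 ± 0.18 in the line difference (edgeR adjusted p = 4.72e-08). STC2 (-0.56 ± 0.12) and WARS (-0.48 ± 0.08) moved down as well and stayed higher in MRPL45 KO.

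**Figure D5:**
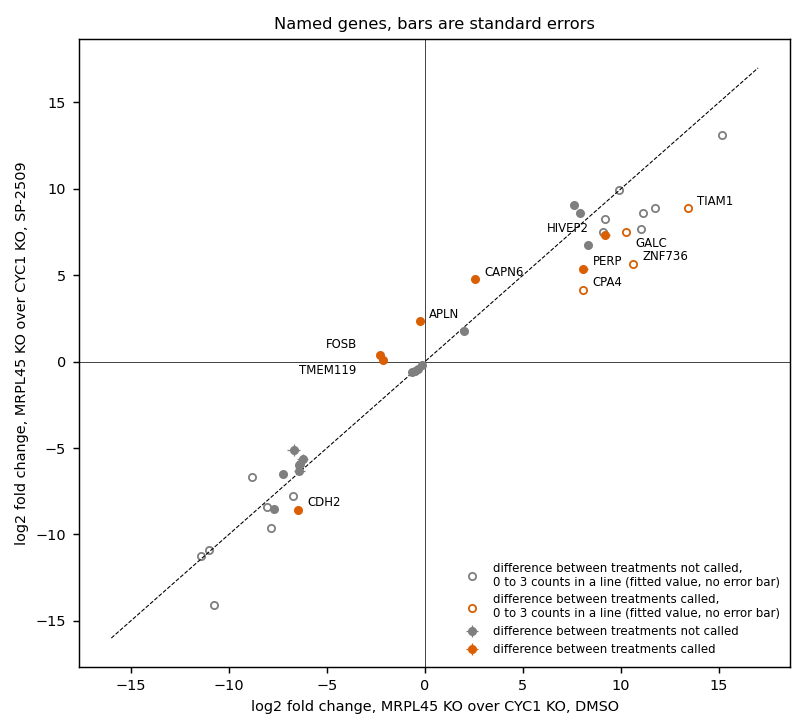
Log2 fold change of MRPL45 KO over CYC1 KO with DMSO (horizontal axis) and with SP-2509 (vertical axis) for the genes named by rule, with standard errors and the line of equal values. Orange genes are those whose line difference changed with treatment, such as APLN, FOSB and CDH2, and open circles are genes with 0 to 3 counts in a line, whose fitted values depend on a small added count.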

How the data were processed

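RNA of A673-derived lines was sequenced in 16 libraries, 2 for each of 8 groups, and 4 of them were compared here. The authors deposited whole-number read counts per gene inside their tables of differential analysis, and these counts were joined by gene ID into 1 matrix of 39249 genes. Per the submitters' processing notes, hg19, STAR 2.5.2b, FastQC, MultiQC, Trim Galore and DESeq2 were used. Which tool counted reads, with which annotation and whether by strand, is not given in the sources used here. Symbols are those of the files, and 93.7% of the gene IDs were matched in GENCODE 29 for gene type and chromosome. The 2265 genes without a symbol held 2.405% to 8.588% of a library's counts and stayed in the fit.

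Totals ranged from 24873597 to 56171036 counts a library. edgeR 4.0.16 in R 4.3.3 fitted 8 group means to all 16 libraries, with TMM scaling, filterByExpr by group, robust quasi-likelihood dispersions and Benjamini-Hochberg adjustment over 21633 tested genes, so the spread was estimated over all groups. A gene was called at an adjusted p under 0.05. The SE of a log2 fold change was its size divided by the square root of the F statistic. In the 2 libraries of each group, counts differed by more than sampling noise. On simulated counts of 21166 genes the procedure recovered 94% of genes changed 1.5-fold and 100% of those changed 2-fold. These counts left out the gene-specific part of the quasi-likelihood dispersions. The 200 changed genes all had a mean of 5 CPM or more, so recovery at lower levels was not tested.

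CPM values are counts scaled to a common library total. For genes with 0 to 3 counts over both libraries of a line, a ratio with its exact 95% interval, or a bound with 3 counts as the floor over the line, replaces the fitted fold change, which would depend on a small added count. Named by rule were CYC1, UQCRFS1, KDM1A, EWSR1 and FLI1, and up to 4 called members a direction of each list by p. The rule also named the 15 called genes of largest fold change a direction. These had to have at least 5 CPM in the higher line and libraries that do not overlap between the lines. Up to 4 genes a direction were named among those called for the change with treatment. Genes outside the rule, such as MT-CO1, MT-RNR1, MT-RNR2, MTND2P28, CD99 and the markers of other cell types, and the ZNF, histone, protocadherin, proteasome and small-subunit ribosomal families, were chosen after their values were seen. The comparison and the lists were chosen with earlier results of these data known. Alternatives were other scalings, filters, libraries in the fit, a replicate block, DESeq2 1.42.0 and leaving out each library. Some genes that the rule names are not reported here.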

Additional observations from a re-analysis of the deposited data

Results flagged for a closer look

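The difference between the lines changed with SP-2509 at the 11 genes given here. The test was of the difference itself (edgeR quasi-likelihood, adjusted p under 0.05 over all 21633 genes). FOSB, APLN, TMEM119, CAPN6, CPA4, ZNF736, TIAM1 and GALC were named by rule because they passed this test. HIVEP2, PERP and CDH2 were named for their fold change with DMSO, as were ZNF736, TIAM1 and GALC. Genes of the lists that passed the test, such as ALDH1L2, are not among the 11. Of 21633 genes 10.6% passed this test, a share with which this chosen set cannot be compared. The contrast uses the DMSO libraries as well, and values are log2 changes of the line difference.

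In 4 genes it moved up. FOSB, an AP-1 factor, had 8.25 and 8.67 CPM in MRPL45 KO, against 6.28 and 6.74 CPM in CYC1 KO with SP-2509, and 5.30 and 4.92 CPM in MRPL45 KO, against 21.5 and 28.5 CPM in CYC1 KO with DMSO (2.67 ± 0.19, edgeR adjusted p = 3.13e-09). APLN, the ligand apelin, had 19.6 and 17.7 CPM in MRPL45 KO, against 3.46 and 3.97 CPM in CYC1 KO with SP-2509, and 6.91 and 9.64 CPM in MRPL45 KO, against 9.83 and 9.50 CPM in CYC1 KO with DMSO (2.57 ± 0.20, edgeR adjusted p = 4.98e-09). The change was 2.28 ± 0.23 for TMEM119 (edgeR adjusted p = 3.13e-07) and 2.20 ± 0.15 for CAPN6 (edgeR adjusted p = 2.54e-09).

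In 7 genes it moved down. CDH2 had 0.302 and 0.195 CPM in MRPL45 KO, against 86.9 and 92.4 CPM in CYC1 KO with SP-2509 (-2.11 ± 0.34, edgeR adjusted p = 1.59e-04). PERP had 20.6 and 23.2 CPM in MRPL45 KO, against 0.530 and 0.525 CPM in CYC1 KO with SP-2509 (-2.72 ± 0.38, edgeR adjusted p = 2.93e-05), and the change of HIVEP2 was -1.88 ± 0.57 (edgeR adjusted p = 0.035). The other 4 had 0 to 2 counts in CYC1 KO with DMSO, so their fitted changes depend on a small added count. With SP-2509, ZNF736 had 2004 counts in MRPL45 KO, against 49 in CYC1 KO (-4.96), and TIAM1 had 2801 counts in MRPL45 KO, against 7 in CYC1 KO (-4.52). GALC had 1775 counts in MRPL45 KO, against 12 in CYC1 KO (-2.77), and CPA4, a carboxypeptidase, had 503 counts in MRPL45 KO, against 34 in CYC1 KO (-3.93).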

How the results depend on the processing

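With a stricter filter of a mean of 5 CPM, 8191 genes were called with DMSO and 8163 with SP-2509, out of 10599 tested, since fewer genes were tested. Upper-quartile scaling put 60.8% of the DMSO calls higher in MRPL45 KO, with 7846 higher and 5069 lower. DESeq2 called 11084 genes with DMSO, 10923 with SP-2509 and 1902 for the change with treatment. Leaving out 1 library at a time gave 11250 to 12256 calls with DMSO, of which 46.2% to 48.4% were higher, 10809 to 11509 with SP-2509, and 1359 to 1958 for the change with treatment. That count moved by over 1.5 times without CYC1 KO DMSO replicate 1 (1514) or 2 (1359) or CYC1 KO SP-2509 replicate 2 (1433). In these fits the lone library of a line is assumed to vary like the other groups. A replicate block gave 13398, 13022 and 2929 calls. The 2 libraries of a number share only that number in the labels, although the same-number correlation was positive in all 28 pairs of groups (0.125 to 0.651, and 0.42 for the lines compared here). Of 3597 values of 305 genes followed over these alternatives, 3519 kept their direction and side of the threshold, 75 in 22 genes lost the call, 2 gained it and 1 turned: APLN with DMSO was 0.006 without MRPL45 KO replicate 1 and -0.523 without replicate 2. The cause was not tested. Medians changed sign with a setting in 12 of the lists, among them complex I, glycolysis, NRF2 targets, interferon response, MHC class I, LSD1 complexes and HOX genes. Subtracting chromosome medians was chosen after seeing the data. Poly(A) selection limits what the ribosomal and histone RNA values show.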
